A study of Sus scrofa domesticus with 30 samples.

Results

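Endometrium from 15 pregnant gilts (young female pigs) was ordered by its level of AKR1B1 mRNA, and the 5 libraries with the highest value were compared with the 5 with the lowest across all other genes. The 10 libraries come from a series of 30, in which each gilt gave 1 mRNA and 1 miRNA library of endometrium, the uterine lining, taken on day 13 of pregnancy. The gilts were a cross of Landrace and Yorkshire lines, mated by artificial insemination, and carried either a low (7 gilts) or a high (8 gilts) neonatal immunocrit (iCrit), a blood measure of how much colostrum a piglet had absorbed. The iCrit label was left out of the ranking, and no gilt was unmated, so both ends of it are pregnant animals of the same day. All gilts of both ends share breed, day and tissue, the labels name no batch, and they do not give the number or stage of the conceptuses, and the tissue came from the middle of a uterine horn. Replicate numbers only name an animal within its iCrit group.

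AKR1B1 is an aldo-keto reductase that turns glucose into sorbitol in the polyol pathway and can also act as a prostaglandin F synthase. Around the day sampled, pig conceptuses elongate and release estrogens, interleukin-1 beta and then interferons, and the endometrium answers with changes in ion, calcium and sugar transport, lipid receptors and estrogen inactivation. AKR1B1 is known in the pig as one of the endometrial genes that are higher in the presence of conceptuses, and its level was used here to order the animals.

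The AKR1B1 value (chromosome 18, 14593516 to 14752316, Sscrofa11.1) ran from 151356 in high iCrit replicate 7 to 2445 in low iCrit replicate 2. The 5 AKR1B1-high libraries were, in falling order, high iCrit replicate 7, low iCrit replicate 6, high iCrit replicates 4 and 5 and low iCrit replicate 1. The 5 AKR1B1-low libraries were low iCrit replicates 7, 3 and 5, high iCrit replicate 8 and low iCrit replicate 2, also in falling order, and single values below are given in these 2 orders. The last library inside the high end stood at 60025 and the first outside it, high iCrit replicate 6, at 57465, while the low end began at 15824 below a value of 18939 in low iCrit replicate 4. Group means of 87020 ± 38090 and 7860 ± 6608 (SD, n = 5 and 5) describe the choice of libraries and are not a result.

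**Figure D1:**
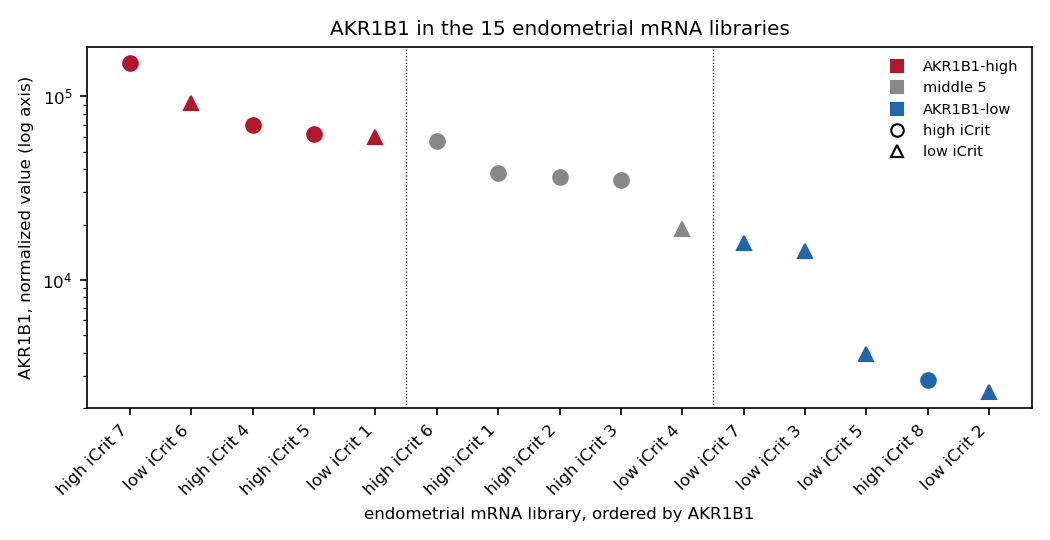
Normalized AKR1B1 value (log axis) in each of the 15 endometrial mRNA libraries, ordered from highest to lowest, with 1 point per animal, the AKR1B1 class in colour and iCrit as the marker shape. The values fall from 151356 to 2445, and the step between the fifth and the sixth library (60025 and 57465) is small.

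The ranking did not use iCrit, and the 2 ends did not differ detectably in it. Low iCrit gilts made up 2 of the 5 AKR1B1-high and 4 of the 5 AKR1B1-low libraries (Fisher's exact test, two-sided p = 0.524). Estimated depth was 33.5 ± 7.91 and 38.1 ± 9.33 M reads for the mRNA libraries (exact permutation p = 0.444). Both ends held the defining transcripts of endometrium. The epithelial marker EPCAM stood at 18139.5 ± 1922 in AKR1B1-high and 15358 ± 1694 in AKR1B1-low libraries, the stromal marker LUM at 9629 ± 2874 and 9769 ± 1457, and the glandular transcription factor FOXA2 at 2388 ± 763 and 2674 ± 736 (SD, n = 5 and 5).

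Of the libraries at the ends of the ranking, 3 stand apart in the series. Low iCrit replicate 2, the lowest in AKR1B1, had list means of -1.45 for conceptus-response genes, -1.54 for neutrophil and eosinophil markers and -0.59 for epithelial markers, on a log2 scale centred on all 15 libraries. High iCrit replicate 8, next to it in the ranking, had a mean of 1.45 for conceptus trophoblast markers. High iCrit replicate 7, the highest in AKR1B1, had the fewest estimated reads (23.7 M) and a mean of 0.60 for genes of oxidative phosphorylation. Without these 3 libraries 0 genes passed the test described next. Each of the 126 genes that passed with them kept its sign and an unadjusted p under 0.05. The 126 were picked partly on the remaining libraries, so this was likely in any case. Their log2 differences were then 0.61 to 1.19 times those with all 10 libraries, with a median of 0.90 times.

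AKR1B1-high libraries held more mRNA of 3 conceptus-response genes, of many cell division genes and of some genes for S100 proteins and interferon receptor chains, and less mRNA of PER2, NPAS3, BHLHA15 and a few others. Of 16818 genes above the floor of the deposited values in at least 7 of the 15 libraries, 114 (0.678%) were higher and 12 (0.0714%) lower in AKR1B1-high libraries (0.749% together) at an adjusted p under 0.05 (limma on log2 of the value plus 1, Benjamini-Hochberg adjusted over all genes tested). A further look at unadjusted p under 0.05 gave 1565 higher (9.31%) and 1336 lower (7.94%), or 17.2% of genes. Of the 114 higher genes, 44 differed by 4-fold or more, and the smallest difference among them was 0.53 on the log2 scale. The libraries were chosen by a measured gene, so each p value is about association with the AKR1B1 ranking and not about a treatment. Values come from whole tissue, in which fewer cells of a type and less RNA per cell cannot be told apart.

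The calls rest on few animals, and most did not survive the loss of a single library. In 122 of the 126 genes the 2 groups did not overlap, which was likely once genes were picked by a test of these same values. The groups overlapped in UPP1, LOC100521647, CCNB2 and KIF23. Over all genes, 2.98% had all 5 AKR1B1-high above all 5 AKR1B1-low libraries and 1.7% the reverse. The mean of the middle 5 libraries, which are in neither end, lay between the 2 ends on the log2 scale for 125 of the 126 genes, RBM46 being the exception. The genes were picked for the distance between the ends, so this was likely in any case. Its share over all genes tested was not counted. Each library was left out in turn and the genes of the 126 still past the threshold were counted. The loss of low iCrit replicate 1 left 14 of them, that of low iCrit replicate 7 or of high iCrit replicate 8 left 16, and that of low iCrit replicate 6 left 25. With high iCrit replicate 7 omitted 52 passed, with low iCrit replicate 2 omitted 61, and between 91 and 117 when any of the other 4 was dropped. A gene passed in a median of 4 of these 10 fits. HS3ST5, LOC100620265, PGLYRP2, RND1, DHRS4, ACTG2, PTGDR2, LOC100739163, ATP1B3, GSTK1, LOC100739087 and PER2 passed in all 10, and TFF3 in 0.

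**Figure D2:**
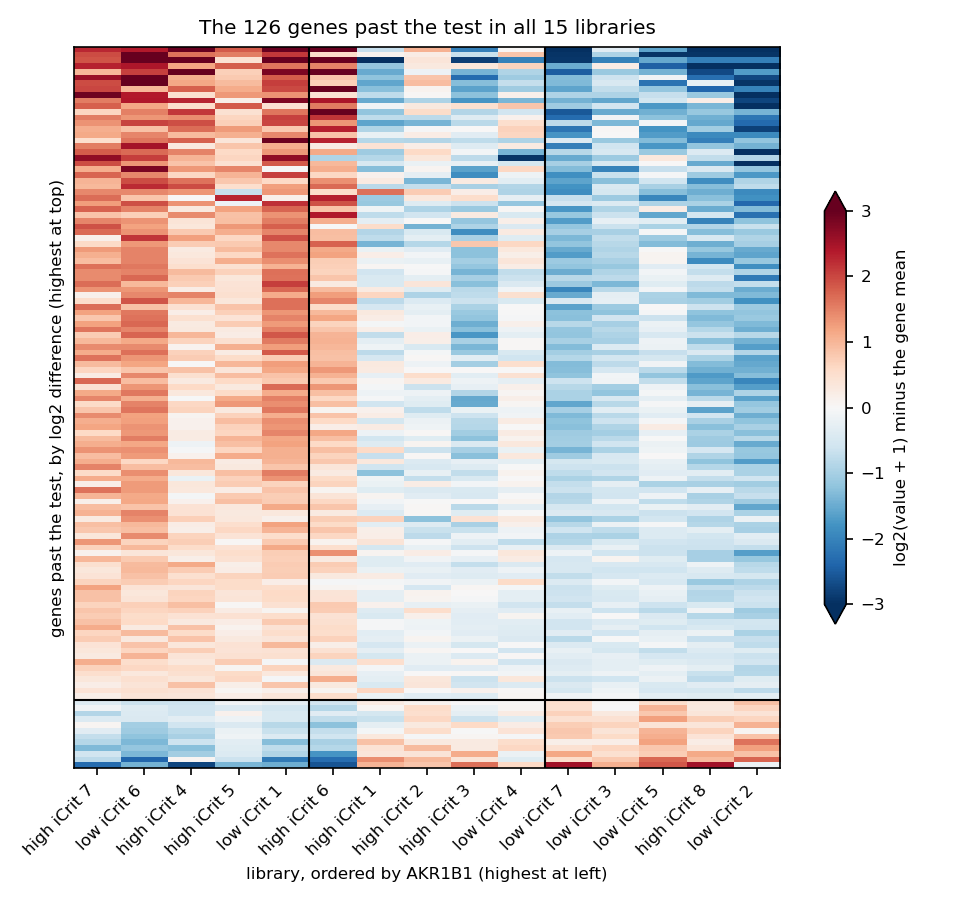
Log2(value + 1) minus the gene's mean over all 15 libraries (colour) for the 126 genes past the test (rows, from the largest to the smallest log2 difference) in libraries ordered by AKR1B1 (columns). Vertical lines part the 5 highest, middle 5 and 5 lowest libraries and the horizontal line parts the 114 higher from the 12 lower genes. High iCrit replicate 6, the library just outside the high end, lies nearer to the AKR1B1-high than to the AKR1B1-low mean in 121 of the 126 rows.

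Among the genes known to answer conceptus signals in the pig, 3 of 28 tested were past the test, against 0.678% of all genes. These were LPAR3, SULT1E1 and SLC5A1, all higher in AKR1B1-high libraries. Of all 28, 12 had higher and 16 lower values. LPAR3, a receptor for the lipid signal lysophosphatidic acid (chromosome 6, 128860210 to 128937769), had values of 3691, 7487, 2109, 1835 and 3985 in the AKR1B1-high and 381, 682, 203, 813 and 122 in the AKR1B1-low libraries. Low iCrit replicate 6 was the highest of all, and the lowest AKR1B1-high library stood above every AKR1B1-low one. LPAR3 differed by 3.26 ± 0.53 (SE) on the log2 scale (adjusted p = 0.0231, limma), which is 9.57-fold.

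SULT1E1, the sulfotransferase that inactivates estrogens (chromosome 8, 66811536 to 66838181), stood at 1446, 3113, 3497, 1315 and 7751 in AKR1B1-high and 759.7, 466, 414, 244 and 446 in AKR1B1-low libraries. Low iCrit replicate 1 was far above the rest, while the 5 AKR1B1-low values lay close together. SULT1E1 differed by 2.66 ± 0.45 (SE) on the log2 scale (adjusted p = 0.0257, limma). SLC5A1, the sodium-glucose cotransporter (chromosome 14, 48566400 to 48704145), stood at 25524, 16514, 10690.2, 26420.4 and 10198 in AKR1B1-high and 3561, 4972, 2255, 2877 and 431 in AKR1B1-low libraries. Low iCrit replicate 2 was the lowest by a wide margin, and the groups did not overlap. The difference was 2.92 ± 0.57 (SE) (adjusted p = 0.0436, limma), or 2.11 without the 3 libraries apart. With iCrit as a covariate SLC5A1 did not pass (adjusted p = 0.086, limma).

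The other members of that list were mixed, and the list median of -0.10 lay near the -0.01 of all genes tested. S100G, the intracellular calcium carrier calbindin-D9k, stood at 6878 ± 5086 and 797 ± 910.0 (SD, n = 5 and 5) and did not pass (adjusted p = 0.0809, limma). It overlaps CTPS2 on the other strand, and strand use in the counting is not given, so its reads are uncertain. MUC1, a surface mucin, stood at 5032 ± 1294 and 3037 ± 789.8, and the growth factor HGF at 252 ± 96.6 and 489 ± 125. STC1, a calcium-regulating hormone that conceptus estrogen raises, and SPP1, an adhesion protein of attachment, were chosen after their values were seen. STC1 stood at 4341 ± 4442 and 4593 ± 4726 with a log2 difference of -0.12 ± 0.97 (SE), and SPP1 at 2862 ± 2581 and 2521 ± 1068 with -0.08 ± 0.48 (SE). LPAR3, SULT1E1 and SLC5A1 passed in 6, 5 and 2 of the 10 fits without 1 library, with adjusted p of up to 0.0725 (without low iCrit replicate 1), 0.0856 and 0.118 (both without low iCrit replicate 6). Of the 28 genes 0 passed without low iCrit replicate 1, 6 or 7, and up to 4 without any other library.

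**Figure D3:**
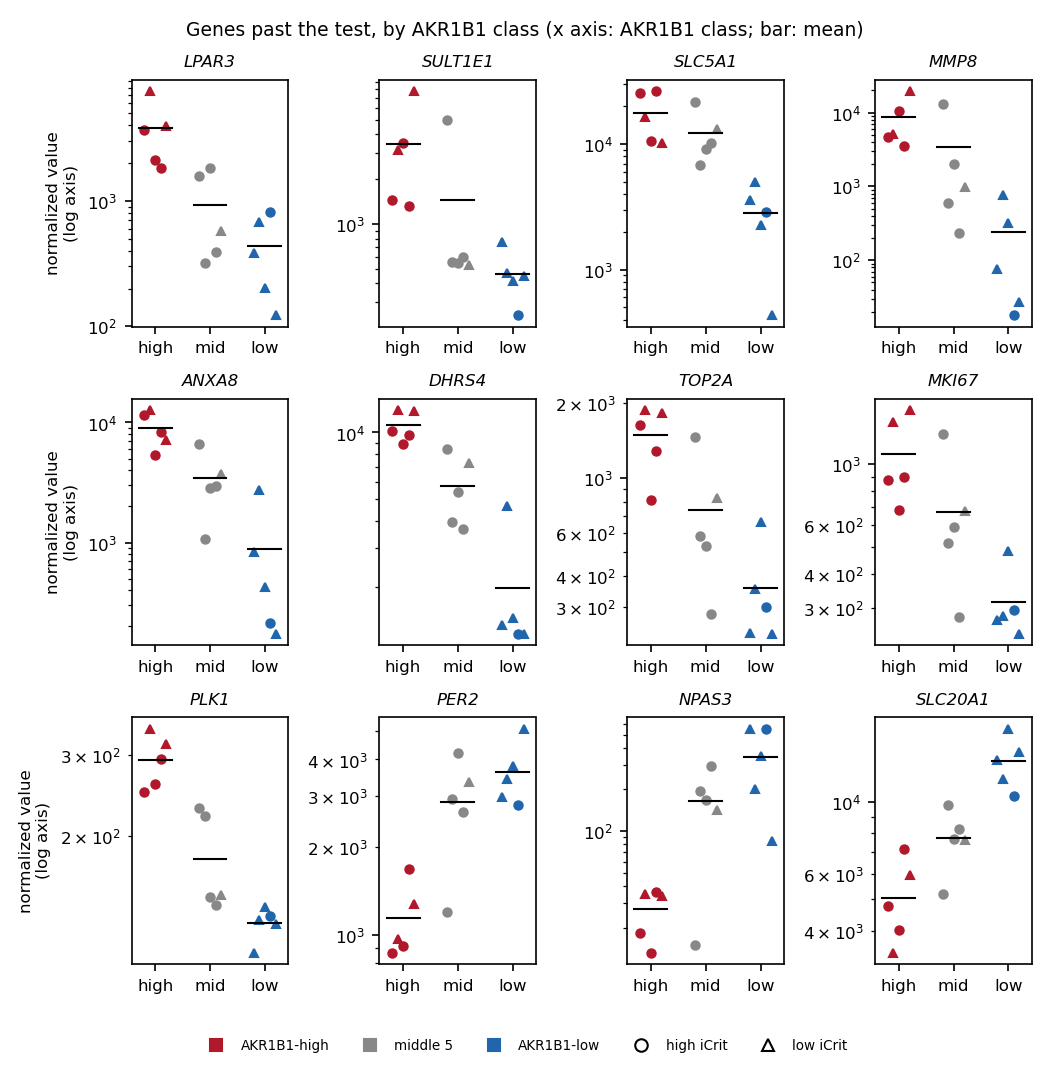
Normalized value (log axis) of 12 genes past the test in each library, by AKR1B1 class (5 highest, middle 5, 5 lowest), with iCrit as the marker shape and the class mean as a bar. In all 12 panels the AKR1B1-high and AKR1B1-low points do not overlap. LPAR3, for example, lies at 1835 or above in the first and at 813 or below in the last class.

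The largest difference belonged to MMP8, the collagenase that neutrophils store. MMP8 (chromosome 9, 33384034 to 33397637) stood at 4636, 5058, 10423, 3486 and 19468 in AKR1B1-high and 76.2, 767, 323, 17.8 and 27.4 in AKR1B1-low libraries. Its highest AKR1B1-low value, in low iCrit replicate 3, was below the lowest AKR1B1-high one. The log2 difference was 6.12 ± 0.93 (SE) (adjusted p = 0.0173, limma), and 4.85 without the 3 libraries apart. MMP8 passed in 6 of the 10 fits without 1 library, with an adjusted p of up to 0.059 without low iCrit replicate 1. The other markers of neutrophils and eosinophils did not follow MMP8 evenly. S100A8, S100A12 and S100A9, calcium-binding proteins of neutrophils and of epithelium, differed by 3.91, 3.14 and 1.70 and did not pass (adjusted p = 0.0865, 0.123 and 0.341, limma).

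Of the neutrophil list 9 of 14 markers tested were higher, with a median log2 difference of only 0.16 and a mean of 1.01. The list mean takes in MMP8, S100A8, S100A12 and S100A9, whose differences were far above that median. On the centred log2 scale it was 0.10 to 0.62 in the AKR1B1-high and -1.54 to -0.21 in the AKR1B1-low libraries, without overlap. Receptor and granule markers chosen after their values were seen had low levels. CXCR2, a chemokine receptor, stood at 3.25 ± 3.07 and 1.21 ± 0.34, MMP9 at 12.4 ± 6.92 and 10.1 ± 4.55, the granule elastase ELANE at 22.0 ± 12.2 and 21.0 ± 10.4, and CSF3R, the receptor for granulocyte growth factor, at 82.2 ± 31.1 and 199.6 ± 200.1 (SD, n = 5 and 5). The granule gene MPO was not above the floor in enough libraries to be tested. The summed level of the list ran from 36240 to 81050 in AKR1B1-high and from 3180 to 42990 in AKR1B1-low libraries. The part of these cells in the MMP8 difference was not tested.

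ANXA8, a calcium-dependent membrane-binding annexin (chromosome 14, 88319209 to 88340716), stood at 11610.3, 12716, 5359, 8364 and 7203 in AKR1B1-high and 834, 2737, 428, 212 and 172 in AKR1B1-low libraries. All 5 AKR1B1-high values were above all 5 AKR1B1-low ones, among which low iCrit replicate 3 was high. ANXA8 differed by 4.06 ± 0.63 (SE) on the log2 scale (adjusted p = 0.0187, limma). ANXA8 passed in 5 of the 10 fits without 1 library, with an adjusted p of up to 0.0658 without low iCrit replicate 6. DHRS4, an NADPH-dependent reductase of retinal and other carbonyls (chromosome 7, 75242121 to 75255594), stood at 10206, 12637, 8898, 9715 and 12535 and 1345, 4653, 1447, 1228 and 1235. The AKR1B1-high values were tightly grouped, and of the AKR1B1-low ones only low iCrit replicate 3 was above 1500. The difference was 2.66 ± 0.33 (SE) (adjusted p = 0.012, limma), and DHRS4 passed without any single library. CYP26A1, which breaks down retinoic acid, stood at 2718 ± 284 and 717 ± 571 without overlap and did not pass (adjusted p = 0.0739, limma).

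UPP1, the uridine phosphorylase, differed by 3.06 ± 0.57 (SE) (adjusted p = 0.0358, limma), although its groups overlapped. Its lowest AKR1B1-high value, 1695 in high iCrit replicate 5, was just below the 1714 of high iCrit replicate 8. MBOAT1, an acyltransferase of lysophospholipids, stood at 4259.7 ± 2001 and 1049 ± 405 (log2 difference 1.99), and FAAH, which degrades anandamide and other fatty acid amides, at 829 ± 399.7 and 146 ± 48.9 (2.43). TMEM139, a membrane protein, and its neighbour GSTK1, a glutathione transferase, lie 18492 bases apart on chromosome 18 and differed by 2.83 and 1.57 (adjusted p = 0.0131 and 0.012, limma). TSPO, a cholesterol-binding protein of the outer mitochondrial membrane, stood at 6833 ± 2867 and 1967 ± 958 (log2 difference 1.86). TSPO, FAAH and GSTK1 were chosen after their values were seen. In fits without 1 library, UPP1 passed in 2 and TSPO in 3 of 10, with adjusted p of up to 0.108 and 0.11 without low iCrit replicate 6, and neither passed with iCrit as a covariate (0.06 and 0.053). When all 15 libraries were fitted with log2 AKR1B1 as a continuous term, TSPO had the smallest adjusted p of all genes (4.45e-05, limma), with 0.49 log2 units per doubling of AKR1B1, ahead of ANXA8 (7.76e-05).

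Several of the genes with the firmest calls were of low abundance and were chosen after their values were seen. HS3ST5, which adds sulfate to heparan sulfate, stood at 58.4, 320.3, 46.0, 43.0 and 65.1 in AKR1B1-high libraries. It was at the floor of 1 in 4 of the 5 AKR1B1-low libraries and at 7.1 in low iCrit replicate 3. PGLYRP2, an amidase that cleaves bacterial peptidoglycan, stood at 688, 340.3, 596, 374 and 675 and 56.6, 102, 76.2, 32.1 and 42.1 (log2 difference 3.15 ± 0.34 (SE), adjusted p = 0.00845, limma). RND1 stood at 315 ± 147 and 40.4 ± 12.5. PGLYRP2 and RND1 reached their highest values of all, 2400.5 and 1588, in high iCrit replicate 6, the library just outside the high end.

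The cell cycle list held the most calls of the 28 lists examined. Of 48 tested genes of the cell cycle and DNA replication list, 18 were past the test, all higher in AKR1B1-high libraries, against 0.678% of all genes. At an unadjusted p under 0.05 there were 33 higher and 2 lower (9.31% and 7.94% of all genes), and the list median was 0.97 on the log2 scale, with 40 genes higher and 8 lower. Without the 3 libraries apart 0 of the 48 passed, 30 were higher and 1 lower at an unadjusted p under 0.05, and the median was 0.91. The list mean per library, centred on all 15, was between 0.12 and 0.81 in the AKR1B1-high and between -0.62 and -0.10 in the AKR1B1-low libraries.

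TOP2A, which untangles DNA before mitosis (chromosome 12, 22001300 to 22028452), stood at 1626, 1874, 808, 1283 and 1823 in AKR1B1-high and 235, 356, 661, 301 and 234 in AKR1B1-low libraries. The 2 groups did not overlap, with low iCrit replicate 5 the highest of its group. The log2 difference was 2.10 ± 0.31 (SE) (adjusted p = 0.0173, limma). MKI67, the proliferation marker Ki-67 (chromosome 14, 137266622 to 137296312), stood at 873, 1415, 681, 894 and 1571 and 272, 279.6, 484, 296 and 241, a difference of 1.76 ± 0.26 (SE) (adjusted p = 0.0173, limma). PLK1, a mitotic kinase, had a narrow range in each group, at 249, 343, 259, 295 and 317 and 111, 131, 140.1, 134 and 128. Every AKR1B1-high library was above every AKR1B1-low one in TOP2A, MKI67 and PLK1.

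The calls covered DNA synthesis as well as mitosis. RRM2 and TK1, which supply nucleotides for DNA synthesis, differed by 1.91 and 2.05, the replicative helicase subunit MCM3 by 1.17, and UHRF1, which carries DNA methylation through replication, by 1.92. In mitosis the spindle protein TPX2 differed by 1.94, CDK1, the kinase that starts mitosis, by 1.98, its partner CCNB2 by 1.76, and FOXM1, a transcription factor of mitotic genes, by 1.86. A wider set of 42 genes of the kinetochore and centromere, taken by symbol after the calls were seen, held 10 past the test, all higher (0.678% of all genes), among them NDC80 (2.45), SPC24 (3.10), SKA1 (2.17), the centromeric histone CENPA (1.98) and the checkpoint kinase TTK (2.15). MYBL2, a transcription factor that acts with FOXM1 at mitotic genes, is in neither the cell cycle list nor this wider set, and went the other way. It stood at 1499.7, 1485, 1615, 1785 and 1459 in AKR1B1-high and 2743, 2737, 4690.0, 3319 and 3145 in AKR1B1-low libraries, without overlap, a difference of -1.06 ± 0.15 (SE) (adjusted p = 0.017, limma). MYBL2 passed in 7 of the 10 fits without 1 library, with an adjusted p of up to 0.059 without low iCrit replicate 1.

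The cell cycle calls did not hold without some of the libraries, while the direction did. Of the 48 genes 0 passed when high iCrit replicate 8 or any of low iCrit replicates 1, 6 and 7 was left out. The number was 6 with high iCrit replicate 7 dropped, 9 with low iCrit replicate 2 dropped and 12 to 22 for each of the other 4. The list median was between 0.88 and 1.11 in these 10 fits, which share most of their libraries. TOP2A, MKI67 and PLK1, of which PLK1 was chosen after its values were seen, each passed in 6 of the 10 fits without 1 library, with adjusted p of up to 0.059 and 0.059 (low iCrit replicate 1 left out) and 0.0744 (low iCrit replicate 7 left out), and CDK1, CCNB2 and FOXM1 in 3, 3 and 2. With iCrit as a covariate CDK1, TK1 and SPC24 did not pass (adjusted p = 0.053, 0.053 and 0.059, limma).

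Of the genes for S100 proteins, small calcium-binding proteins that many epithelia make, 6 were past the test and higher in AKR1B1-high libraries, and 5 of them lie together on chromosome 4. The family was chosen after its values were seen. Of 17 members tested 15 were higher and 6 passed, against 0.678% of all genes, with a median log2 difference of 1.09. S100A14, S100A2, S100A5, S100A6 and S100A7 lie between 96027746 and 96178694 on chromosome 4, and S100A11 at 97233833 to 97239081. The block was not uniform, since S100A16, S100A4 and S100A3 lie inside it and did not pass, with log2 differences of 0.73, 0.35 and -0.24 (adjusted p = 0.141, 0.652 and 0.898, limma). S100A2 stood at 20195, 12924, 9287, 7036 and 18437 in AKR1B1-high and 2595, 3693, 5231, 1824 and 652 in AKR1B1-low libraries. High iCrit replicate 7 was the highest and low iCrit replicate 2 the lowest, and the groups did not overlap.

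The log2 differences were 2.47 ± 0.50 (SE) for S100A2, 1.61 ± 0.27 (SE) for S100A6, 1.09 ± 0.17 (SE) for S100A11 and 0.99 ± 0.19 (SE) for S100A14 (adjusted p = 0.0482, 0.0257, 0.0173 and 0.038, limma). S100A5 and S100A7 had low values, at 151 ± 112 against 7.90 ± 3.94 and 67.8 ± 58.4 against 5.24 ± 4.30 (SD, n = 5 and 5), with differences of 3.87 and 3.39. Reads shared between near-identical family members could move between these genes, since how they were assigned is unknown. The annexins, partners of S100 proteins at membranes, had 9 of 12 members higher and 2 past the test (49.24% and 0.678% of all genes). These were ANXA8 and ANXA4, the latter at 27126 ± 2439 and 13343 ± 3708. S100A2 passed in 4 of the 10 fits without 1 library, with an adjusted p of up to 0.129 without low iCrit replicate 1. Neither S100A2 nor S100A14 passed with iCrit as a covariate (adjusted p = 0.0566 and 0.0744, limma).

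Another run of neighbours on chromosome 13 held 3 receptor chains, IFNAR2, IL10RB and IFNAR1, between 196765915 and 196951398. IFNAR1 and IFNAR2 form the receptor for type I interferons, and IL10RB is a shared chain of the interleukin-10 and interferon lambda receptors. IFNAR1 stood at 9159, 21092, 10918, 14836 and 13996 in AKR1B1-high and 3374, 7337, 3432, 2400.4 and 3224 in AKR1B1-low libraries. Low iCrit replicate 6 was the highest, and the closest AKR1B1-low value was that of low iCrit replicate 3. The log2 differences were 1.88 ± 0.29 (SE) for IFNAR1, 1.43 ± 0.22 (SE) for IL10RB and 1.37 ± 0.23 (SE) for IFNAR2 (adjusted p = 0.0187, 0.0173 and 0.0248, limma). They passed in 6, 7 and 5 of the 10 fits without 1 library, with adjusted p of up to 0.0666 (without low iCrit replicate 7), 0.059 and 0.086 (both without low iCrit replicate 1). Of 10 receptor chains of these families tested 8 were higher and 3 passed, against 0.678% of all genes, and this group too was chosen after its values were seen.

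Among all 126 genes, 22 had another called gene within 100 kb, in 19 pairs, and each pair moved the same way, with 0 to 5 other genes between them. Besides those above they included BIRC5 and TK1 on chromosome 12, COG7 and SCNN1B on chromosome 3, and LMTK2 and BHLHA15, 1243 bases apart on chromosome 3 and both lower. Most of the pairs lie in the S100 block or among the receptor chains above. Of the 126 genes 114 were higher, so most pairs would move the same way in any case. How many of all genes tested lie this close to another was not counted. The sources do not give how reads in shared or close transcripts were assigned.

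**Figure D4:**
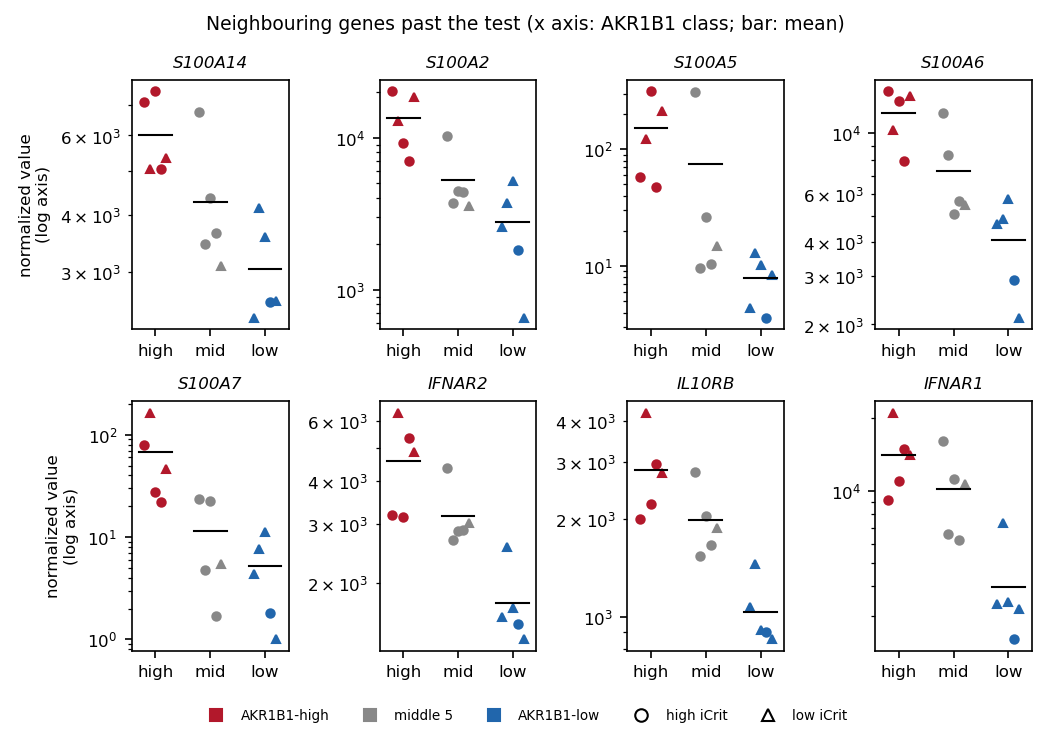
Normalized value (log axis) of 5 neighbouring S100 genes on chromosome 4 and of IFNAR2, IL10RB and IFNAR1 on chromosome 13 in each library, by AKR1B1 class, with iCrit as the marker shape and the class mean as a bar. The 5 AKR1B1-high points lie above the 5 AKR1B1-low points in all 8 panels, which show genes past the test and not those lying between them.

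Interferon-stimulated genes, whose products act downstream of those receptors, were mostly lower. Of 37 tested, 29 were lower in AKR1B1-high libraries, with a median of -0.45, 12 lower and 0 higher at an unadjusted p under 0.05 (7.94% and 9.31% of all genes), and 0 past the test. RSAD2, an antiviral enzyme, stood at 608, 352, 690.2, 574 and 487 in AKR1B1-high and 1745, 933, 727, 1368 and 2219.9 in AKR1B1-low libraries, without overlap, and did not pass (log2 difference -1.29 ± 0.30 (SE), adjusted p = 0.0802, limma). IDO1, which breaks down tryptophan, stood at 35.8 ± 52.2 and 273 ± 159, and the GTPase GBP2 at 483 ± 190.2 and 3097 ± 3168 (SD, n = 5 and 5). The interferon list mean was 1.12 in low iCrit replicate 2 and 0.66 in high iCrit replicate 8, but -0.61 in low iCrit replicate 5. Without the 3 libraries apart its median was -0.10, with 5 genes lower at an unadjusted p under 0.05. The highest interferon list mean of all, 1.82, belonged to high iCrit replicate 2 in the middle of the ranking.

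Antigen presentation and T cell genes lay on the same side. Of 27 genes of MHC and antigen presentation 22 were lower (median -0.41), 9 of them at an unadjusted p under 0.05, against 7.94% of all genes, and 0 past the test. SLA-DOA, a class II subunit, stood at 256 ± 53.1 and 637 ± 299, NLRC5, an activator of class I genes, at 545 ± 199 and 2265 ± 2022, and SLA-DRB1 at 1448 ± 687 and 3430.3 ± 1369.7 (SD, n = 5 and 5). Of 37 markers of T and NK cells 34 were lower (median -0.48), 6 at an unadjusted p under 0.05, against the same 7.94%, and 0 past the test, among them IL7R, the interleukin-7 receptor (14.4 ± 4.48 and 35.3 ± 18.3), and CD2 (102 ± 41.3 and 240.0 ± 133). The summed level of these markers, 3543 to 6915 in AKR1B1-high and 3832 to 7101 in AKR1B1-low libraries, overlapped between the ends. Without the 3 libraries apart the T and NK cell median was -0.36 and 35 of 37 were lower. Markers of macrophages and dendritic cells were lower in 17 of 22 (median -0.30) with all libraries and in 10 of 22 without those 3 (median 0.06).

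Of 46 genes for the transport of ions, calcium and water, 30 were higher and 2 past the test (49.24% and 0.678% of all genes). ATP1B3, a beta subunit of the sodium pump (chromosome 13, 82680442 to 82727052), stood at 14339, 16261, 16834, 11733 and 20278 in AKR1B1-high and 3763, 6378, 5195, 3329.5 and 3364 in AKR1B1-low libraries. All AKR1B1-high values were well above all AKR1B1-low ones, and its adjusted p of 0.00845 (limma) was among the 3 lowest of all genes, with a log2 difference of 1.88 ± 0.21 (SE). SCNN1B, the beta subunit of the epithelial sodium channel ENaC, stood at 3783, 6008, 4002, 1414 and 7226 and 1104, 1195, 832, 810.5 and 309 (difference 2.34 ± 0.45 (SE), adjusted p = 0.0418, limma). SCNN1G, the gamma subunit nearby on chromosome 3, stood at 3845 ± 3651 and 299 ± 91.6 without overlap and did not pass (adjusted p = 0.0908). FXYD2, a regulator of the sodium pump, was chosen after its values were seen and had lower values in AKR1B1-high libraries, at 386 ± 327 and 1729.8 ± 1201 (log2 difference -2.41, adjusted p = 0.119, limma). SCNN1B passed in 2 of the 10 fits without 1 library, with an adjusted p of up to 0.12 without low iCrit replicate 6.

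Nutrient transporters were higher in 27 of 46 (median 0.05), and SLC5A1 was the 1 past the test as a higher gene, against 0.678% of all genes. SLC2A8, a glucose and fructose transporter, stood at 7139 ± 1823 and 2230.1 ± 1954 without overlap and did not pass (log2 difference 2.22, adjusted p = 0.111, limma). SLC7A6, an exchanger of basic and neutral amino acids, stood at 796 ± 67.1 and 559 ± 74.5. That gene overlaps SLC7A6OS on the other strand, so its reads are uncertain. Outside this list, SLC20A1, a sodium-phosphate cotransporter (chromosome 3, 43844716 to 43860547), was past the test in the other direction. SLC20A1 stood at 4773, 3420.2, 4036, 7163 and 5929.8 in AKR1B1-high and 13455, 11735, 16792, 10396 and 14233 in AKR1B1-low libraries. The groups were far apart, and the difference was -1.43 ± 0.21 (SE) (adjusted p = 0.017, limma).

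Genes of the pathways in which AKR1B1 itself works lay on both sides. Of 26 genes of prostaglandin synthesis, transport and reception 13 were higher and 13 lower (median 0.07). PTGDR2, a receptor for prostaglandin D2, was the 1 past the test, against 0.678% of all genes. PTGDR2 (chromosome 2, 10891280 to 10897194) stood at 393, 649.5, 448, 454 and 727 in AKR1B1-high and 115, 149, 107, 95.0 and 133 in AKR1B1-low libraries, a difference of 2.12 ± 0.23 (SE) (adjusted p = 0.00845, limma). It overlaps CCDC86 on the other strand, so its reads are uncertain. PTGES, a prostaglandin E synthase, stood at 861 ± 235 and 372 ± 119 without overlap (adjusted p = 0.0802, limma, not past the test). PTGS2, the cyclooxygenase that conceptus signals act on, was chosen after its values were seen and stood at 5974 ± 2619 and 7116 ± 3806 (log2 difference -0.05 ± 0.56 (SE)). Of 16 other genes of the aldo-keto reductase and polyol pathway list 8 were higher and 8 lower, 0 passed, and AKR1A1, a related aldehyde reductase, stood at 3019 ± 1053 and 1801 ± 334. Its list median of 0.04 was -0.25 without high iCrit replicate 4.

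Among 37 steroid, 28 interleukin-1 and 53 growth factor genes, SULT1E1 was the 1 past the test, as a higher gene, against 0.678% of all genes. Among 37 genes of steroid receptors and metabolism, NR3C1, the glucocorticoid receptor, stood at 2235 ± 799 and 3347 ± 176 (log2 difference -0.64, adjusted p = 0.133, limma). Among 28 genes of the interleukin-1 system and NF-kB, the receptor IL1R1 stood at 13848 ± 6889.6 and 4797 ± 1991, RELB at 1315 ± 614 and 532 ± 161, and the inhibitor NFKBIA at 1622 ± 396 and 954 ± 66.0, each without overlap and not past the test (adjusted p = 0.103, 0.101 and 0.0821, limma). Of 53 growth factors and receptors 36 were lower (median -0.14). The activin and inhibin subunits INHBB and INHBA stood at 861 ± 388 against 2454 ± 1188 and 1188 ± 206 against 1253 ± 135 and did not pass (adjusted p = 0.105 and 0.791, limma).

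Of 20 smooth muscle markers 17 were higher in AKR1B1-high libraries, with a median of 0.52, and 3 were past the test. Among all genes 49.24% were higher and 0.678% were higher and past the test. ACTG2, an actin of smooth muscle (chromosome 3, 69097366 to 69121542), stood at 845, 1606, 1277, 723 and 632 in AKR1B1-high and 137, 173, 272, 112 and 223 in AKR1B1-low libraries. The lowest AKR1B1-high value was more than 2-fold above the highest AKR1B1-low one. The log2 difference was 2.45 ± 0.31 (SE) (adjusted p = 0.012, limma). ACTA2, another such actin, and CNN1, the contractile protein calponin, differed by 1.31 and 1.33, and CNN1 did not pass with iCrit as a covariate (adjusted p = 0.053, limma). The muscle myosin MYH11 stood at 5049 ± 3294 and 2746 ± 646 and desmin, DES, at 705 ± 259.9 and 366 ± 77.8, both chosen after their values were seen and not past the test (adjusted p = 0.344 and 0.122, limma). The summed level of the 20 markers was 79030 to 112600 in AKR1B1-high and 61830 to 71470 in AKR1B1-low libraries, with low iCrit replicate 6 the highest by list mean (0.79). Of the 20, 1 passed when high iCrit replicate 8 or either of low iCrit replicates 1 and 7 was dropped and 2 or 3 for each other library, and the median without the 3 libraries apart was 0.56.

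The other structural cell types had 0 markers past the test. Epithelial and junction markers were higher in 25 of 35 (median 0.12), with KRT8 and KRT18, keratins of simple epithelia, at 34397 ± 5942 against 21199 ± 5851 and 10436 ± 2059 against 6669.5 ± 1234, and a summed level of 330200 to 364400 in AKR1B1-high and 227500 to 338600 in AKR1B1-low libraries. KRT7 was at the floor in every library. Stromal markers were higher in 13 of 27 (median -0.03), endothelial markers in 9 of 19 (-0.01) and ciliated cell markers in 14 of 33 (-0.06). Their summed levels overlapped between the ends, at 272200 to 724700 and 259000 to 413900 for stroma, 48900 to 90030 and 46640 to 77390 for endothelium and 18610 to 39130 and 19770 to 45260 for ciliated cells. Blood markers gave no call either. Of 11 erythroid and platelet markers 6 were higher (median 0.20), with beta globin, HBB, at 3207 ± 1215 and 1634 ± 937. B and plasma cell markers were lower in 11 of 18 (median -0.05) and conceptus trophoblast markers in 15 of 20 (median -0.30, or 0.02 without the 3 libraries apart), with 0 past the test.

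Most metabolic genes tested had higher values in AKR1B1-high libraries. Of 35 genes of cholesterol and lipid synthesis 31 were higher (median 0.41), 15 of them at an unadjusted p under 0.05, against 9.31% of all genes. The 1 past the test, against 0.678% of all genes, was HMGCS1. HMGCS1, an early enzyme of the cholesterol pathway, stood at 4222, 4796, 6823, 4193 and 6594 in AKR1B1-high and 2718, 3166, 2711, 2923 and 3085 in AKR1B1-low libraries (log2 difference 0.84 ± 0.16 (SE), adjusted p = 0.0393, limma). HMGCS1 passed in 2 of the 10 fits without 1 library, with an adjusted p of up to 0.115 without low iCrit replicate 7. It did not pass with iCrit as a covariate (0.053). The desaturase SCD stood at 2781 ± 883 and 1074 ± 507 and did not pass. The list median was 0.46 without the 3 libraries apart.

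All 28 tested genes of oxidative phosphorylation were higher, by a median of 0.36, with 10 at an unadjusted p under 0.05, against 9.31% of all genes, and 0 past the test. Without the 3 libraries apart, of which high iCrit replicate 7 had the highest list mean (0.60) and low iCrit replicate 2 the lowest (-0.57), the median was 0.16, 24 were higher and 2 had an unadjusted p under 0.05. Of 31 glycolysis and hypoxia genes 19 were higher (median 0.28). GAPDH, a glycolytic enzyme with processed pseudogenes, was the 1 past the test, against 0.678% of all genes. It stood at 21964 ± 4054 and 10803 ± 2121 (log2 difference 1.03). GAPDH passed in 2 of the 10 fits without 1 library, with an adjusted p of up to 0.0938 without low iCrit replicate 6. With iCrit as a covariate its adjusted p was 0.0552 (limma). HK2, which commits glucose to glycolysis, stood at 344 ± 299 and 30.2 ± 12.7 and did not pass (adjusted p = 0.0521, limma), nor did the lactate dehydrogenase LDHA (4585 ± 786 and 2802 ± 622).

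**Figure D5:**
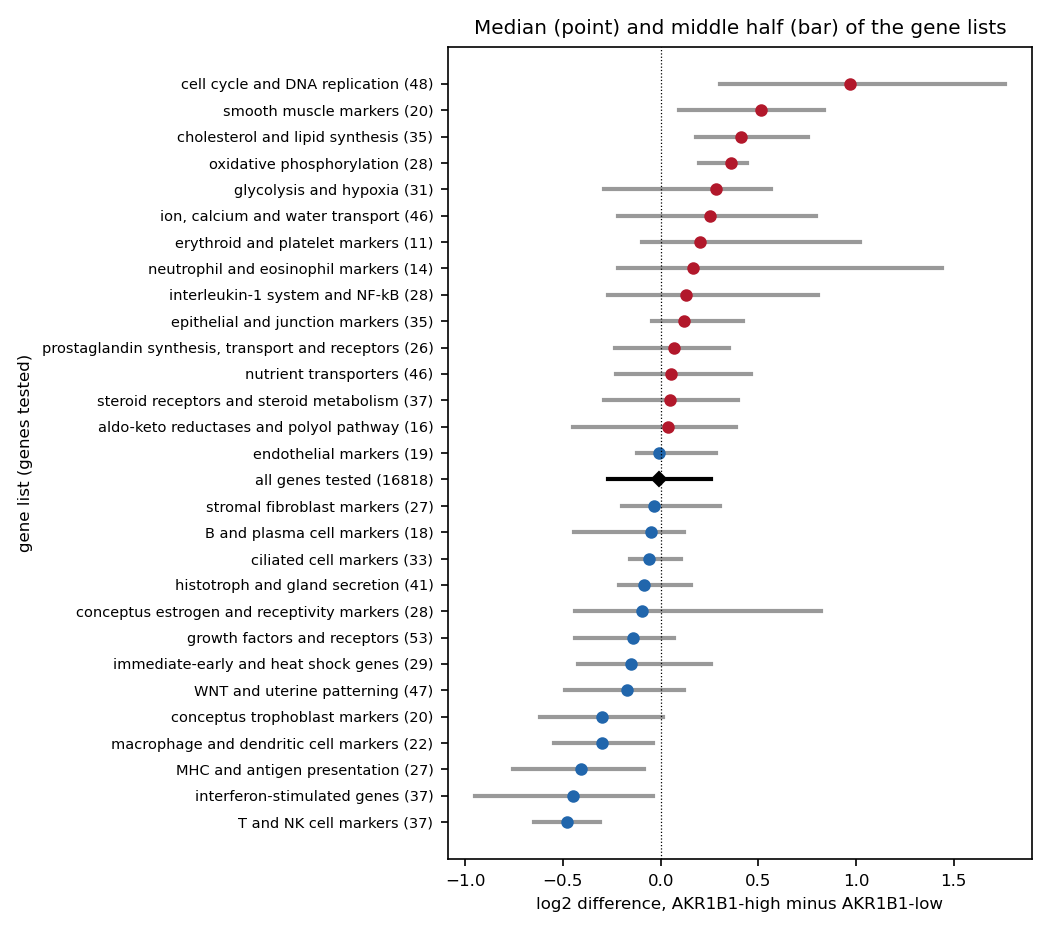
Median log2 difference, AKR1B1-high minus AKR1B1-low (point), and the range from the lower to the upper quartile of the members (bar) for each gene list, with the number of genes tested in brackets and all genes tested as the black diamond. Cell cycle and DNA replication has the highest median (0.97), T and NK cell markers the lowest (-0.48).

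The 12 genes that were lower in AKR1B1-high libraries included transcription factors, the clock gene PER2 and a phosphate transporter. PER2, a repressor in the circadian clock (chromosome 15, 137793419 to 137837854), stood at 867, 969, 916, 1685 and 1280.2 in AKR1B1-high and 2984, 3420.2, 3812, 2791 and 5100.4 in AKR1B1-low libraries. High iCrit replicate 5 was the highest of its group and still below every AKR1B1-low library. The log2 difference was -1.68 ± 0.22 (SE) (adjusted p = 0.012, limma), and PER2 passed without any single library. Of 20 clock genes, taken by symbol after this call was seen, 14 were lower, against 50.76% of all genes, with a median of -0.42. PER2, the gene that led to this choice, was the 1 past the test, against 0.0714% of all genes for lower calls. At an unadjusted p under 0.05, 8 were lower and 1, BHLHE41, higher, against 7.94% and 9.31% of all genes. The labels give no hour of sampling.

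NPAS3, a transcription factor known from brain and lung (chromosome 7, 65924986 to 66800820), had the largest fall on the log2 scale among the 12 and was chosen after its values were seen. It stood at 18.4, 35.1, 13.1, 36.0 and 33.8 in AKR1B1-high and 544, 201, 350.2, 551 and 84.2 in AKR1B1-low libraries, a difference of -3.42 ± 0.52 (SE) (adjusted p = 0.0173, limma). BHLHA15, also called MIST1, a transcription factor of secretory cells, stood at 2984, 978, 5360.5, 3307 and 1166 and 7392, 8753, 16986, 9811 and 17232 (difference -2.32 ± 0.45 (SE), adjusted p = 0.0418, limma). NPAS3 passed in 7 of the 10 fits without 1 library, with an adjusted p of up to 0.059 without low iCrit replicate 1. The AKR1B1-high values were all below the AKR1B1-low ones in both genes. LMTK2, the kinase gene next to BHLHA15, stood at 4212 ± 1279 and 13298 ± 6742 (SD, n = 5 and 5), a difference of -1.57 that did not pass with iCrit as a covariate (adjusted p = 0.0647, limma).

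NOTCH2, a cell-contact receptor, stood at 9849.7 ± 2691 and 18706 ± 2899 (log2 difference -0.95), and RRN3, a factor that starts ribosomal RNA synthesis, at 2823 ± 438 and 5140.1 ± 1101 (-0.85). FAM91A1 and ANKRD13C differed by -1.22 and -0.90. NOTCH2, RRN3 and ANKRD13C did not pass with iCrit as a covariate (adjusted p = 0.0908, 0.0772 and 0.083, limma). NOTCH2 and ANKRD13C passed in 1 of the 10 fits without 1 library, BHLHA15, LMTK2 and RRN3 in 2, and SLC20A1 in 9. Their adjusted p reached 0.135 for NOTCH2 and 0.0564 for SLC20A1, both without low iCrit replicate 7, and 0.11 for BHLHA15 without low iCrit replicate 1. IHH, the secreted signal Indian hedgehog, which relays progesterone action from epithelium to stroma in the mouse uterus, stood at 199.5 ± 90.2 and 721 ± 284 and did not pass (log2 difference -1.81 ± 0.37 (SE), adjusted p = 0.0521, limma). Of 47 WNT and uterine patterning genes 32 were lower (median -0.17) and 0 passed.

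Secretory and stress genes gave no call. Of 41 genes of histotroph, the uterine secretion that feeds the conceptus, 17 were higher (median -0.09). SAL1, the salivary lipocalin that pig endometrium secretes, stood at 34139.5, 45266, 138407, 16097 and 21899 in AKR1B1-high and 3392, 18366, 4799, 4782 and 18181 in AKR1B1-low libraries. The groups overlapped, and high iCrit replicate 4 was far above all others. The log2 difference of 2.30 ± 0.63 (SE) did not pass (adjusted p = 0.115, limma). TIMP1, an inhibitor of matrix proteases, stood at 2025 ± 593 and 1023 ± 481. Immediate-early and heat shock genes were lower in 18 of 29 (median -0.15).

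The library just outside the high end shared many of these values. High iCrit replicate 6 (AKR1B1 57465) stood at 13144 for MMP8, 5003 for SULT1E1, 22570.1 for ATP1B3, 1286 for MKI67 and 1202 for PER2. Each of these lies within or beyond the range of the 5 AKR1B1-high libraries. Other called genes lay below that range in high iCrit replicate 6. Examples are LPAR3 (1568, lowest AKR1B1-high value 1835), DHRS4 (8399, lowest 8898) and HS3ST5 (21.5, lowest 43.0). With the 4 highest and 4 lowest libraries 0 of the 126 genes passed. With the 6 highest and 6 lowest libraries 264 genes were higher and 113 lower, 121 of the 126 among them. With all 15 libraries and AKR1B1 as a continuous term 338 genes had a positive and 117 a negative slope past the threshold, 91 of the 126 among them and all 126 with the same sign. With iCrit as a covariate 87 of the 126 passed.

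The miRNA libraries of the same animals, which the ranking did not use, gave no call. Of 302 miRNA entries tested 0 passed (0%, limma), 5 were higher (1.66%) and 10 lower (3.31%) at an unadjusted p under 0.05, or 4.97% of entries, and 0 passed in any of the other settings run. The estimated depth was 15.1 ± 1.30 and 13.9 ± 0.74 M reads (exact permutation p = 0.151). Among entries with a mean at or above the median, the smallest p was that of miR-150, a miRNA of mature lymphocytes, at 1280.5, 1168, 1040.4, 1230.4 and 1049 in the AKR1B1-high and 1713, 1455, 1739, 2622 and 1418 in the AKR1B1-low animals. All 5 AKR1B1-high values were below all 5 AKR1B1-low ones, as in 0.662% of entries, with a log2 difference of -0.60 ± 0.17 (SE) (adjusted p = 0.656, limma).

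Other miRNAs of blood cells, chosen after their values were seen, differed by less. miR-142-3p, of blood cells in general, differed by 0.02, miR-155-5p by -0.10 and miR-146a-5p by -0.15 on the log2 scale, none past the test. miR-30a-5p stood at 367520.5 ± 77224 and 527015 ± 89179 (SD, n = 5 and 5), a difference of -0.53 ± 0.16 (SE), and its other arm miR-30a-3p at 26418 ± 7309 and 34674 ± 4753. miR-30d and miR-30e-5p of the same family differed by -0.22 and 0.16. miR-214 stood at 3117 ± 663 and 4037 ± 505. On the higher side miR-148a-5p stood at 3534 ± 1058 and 2573 ± 414, and miR-27b-3p, miR-499-5p and miR-374a-5p differed by 0.24, 0.33 and 0.23, with adjusted p of 0.951 or more (limma).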

How the data were processed

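Endometrium of 15 gilts was measured as poly(A)-selected mRNA libraries and as small RNA libraries, per the labels' protocols. The deposited values are a normalized signal per gene model or miRNA entry, already scaled between libraries by the authors, with a floor of 1. Sources used here do not give the aligner, counting tool, strand setting, scaling method or genome build. Coordinates of 97.7% of the gene models equal those of Sscrofa11.1 in RefSeq. Of 26 symbols that a spreadsheet had turned into dates, 25 were restored by coordinates. Both tables held 0 columns without a sample.

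In the mRNA table, 92.2% to 93.8% of low values per library lay within 0.05 of a whole multiple of a step, which gave the estimated reads (23.7 to 63.5 M for mRNA, 12.7 to 18.0 M for miRNA). The floor hides values of 0, so no count test was run.

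Libraries were ranked by AKR1B1, and the 5 highest and 5 lowest were compared on log2(value + 1) over the 16818 mRNA entries, AKR1B1 left out, and 302 miRNA entries above 1 in at least 7 libraries. The test was limma 3.58.1 (R 4.3.3) with an intensity trend and Benjamini-Hochberg adjustment over each table, two-sided. It was also run on simulated data with the gene means and spreads of these mRNA libraries and 200 changed genes. There it recovered 49.25% of 2-fold and 69.7% of 4-fold changes, with 7 false calls. Figures and counts used Python 3.11.15. Separate animals are the replicates, so p-values measure the spread between animals.

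Alternatives were a pseudocount of 10, a filter at 100 or none, other scalings, 4, 6 or 7 libraries per end, AKR1B1 as a continuous term, iCrit or reads as covariates, library weights, no trend and leaving out libraries. Named genes were the up to 12 largest differences past the test in each direction among entries at or above the median level, up to 4 members with the smallest p from each list, and for miRNAs the 4 smallest p in each direction. Members, lists and libraries doubted were chosen with earlier results of these data known. The gene families and the following genes were chosen after their values were seen: EPCAM, LUM and FOXA2 as tissue markers, and GSTK1, PGLYRP2, HS3ST5, RND1, FAAH, TSPO, PLK1, CDK1, CCNB2, FOXM1, TK1, MCM3, UHRF1, CENPA, NDC80, SKA1, SPC24, TTK, KIF23, RBM46, TFF3, S100A5, S100A6, S100A7, S100A11, S100A14, ANXA4, IFNAR1, IFNAR2, IL10RB, FXYD2, NPAS3, S100A3, S100A4, S100A16, BHLHE41, CEBPB, STC1, SPP1, PTGS2, CSF3R, CXCR2, MMP9, ELANE, MYH11 and DES. Some items are not reported here.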

Additional observations from a re-analysis of the deposited data

Results flagged for a closer look

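In 18 of 284 groups of 5 values examined, a library lay apart from the other 4 by more than Dixon's critical value of 0.71 for the gap over the range on the log2 scale, a test that chance passes in about 1 of 20 groups. The genes are those named in the text or by its rule. Most of the flags fell on few libraries.

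Low iCrit replicate 2 was the lowest AKR1B1-low library for SCNN1B (309.3, the other 4 from 811 to 1195), PTGES (170.4, others from 395 to 490), SPC24 (14.7, others from 76.7 to 103), CEBPB, a transcription factor (477.6, others from 959 to 1240.0), and PTGS2 (1139.7, others from 6592 to 11522). Low iCrit replicate 5 was the highest AKR1B1-low library for the mitotic genes CCNB2 (142.1, others from 49.9 to 64.4), CENPA (84.4, others from 37.0 to 37.9) and TTK (76.2, others from 32.1 to 39.95).

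Low iCrit replicate 3 was the highest AKR1B1-low library for DHRS4 (4652.9, others from 1228 to 1447) and for HS3ST5 (7.1, the others at the floor of 1), and the lowest for IHH (264.8, others from 716 to 1031). Low iCrit replicate 7 was the lowest for RND1 (19.6, others from 41.2 to 53.5) and MMP9 (2.2, others from 10.3 to 12.9).

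Among the AKR1B1-high libraries, high iCrit replicate 7 was the highest for COX5B, a subunit of cytochrome c oxidase (8102.4, others from 4213 to 4733). High iCrit replicate 4 was the highest for IHH (358.2, others from 138 to 179.6) and the lowest for HOXA10, a uterine patterning gene (501.8, others from 875 to 962). High iCrit replicate 5 was the highest for NR3C1 (3651.1, others from 1737 to 1988), and low iCrit replicate 6 for HS3ST5 (320.3, others from 43.0 to 65.1).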

How the results depend on the processing

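The direction was steadier than the number of calls. Each of the 126 genes past the test had the same sign in every one of the 25 alternatives in which it was tested. Of them, 97 were tested with the filter at 100 and all 126 in the others. Every alternative reused libraries on which the 126 were picked, so a kept sign was likely in any case and is no separate support. Against 114 higher and 12 lower genes, the counts were 34 and 5 without a filter on low values, 0 and 0 with 4 libraries per end, 264 and 113 with 6 and 338 and 117 with AKR1B1 as a continuous term over 15 libraries. The lower genes numbered 45 with 7 libraries per end, 24 with estimated reads as a covariate and 44 with library weights. Without the 3 libraries apart there were 0 and 0, with 1071 higher and 951 lower at an unadjusted p under 0.05 (limma). Without low iCrit replicate 2 and high iCrit replicate 8, a choice made after seeing the data, there were also 0 and 0. Leaving out 1 library at a time gave 12 to 186 higher and 2 to 109 lower genes. Fewer libraries were compared in these fits, and the cause was not tested further. The miRNA count was 0 in every alternative. No paired analysis was possible because the AKR1B1 ends were set by rank and share no pairs of animals. The number of animals, 5 per end, limits the precision of each difference.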
